A study of Mus musculus with 18 samples.

Results

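Krt8, Krt18, Krt7, Krt19, Krt23, Epcam, Sox9, Ly6d and Fam83a are genes of simple, ductular and stratified epithelium. These 9 genes of the 55487 in the raw count table were taken by their symbols, and each was measured in all 18 livers. They were chosen by their measured levels and fold changes in these same livers, with earlier results known, so their own levels and fold changes are described here with no p-value for any of them.

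The livers came from male C57BL/6J mice bought at 7 weeks of age. Each mouse was injected with an adeno-associated virus (AAV8) whose TBG promoter restricts expression to hepatocytes, 1 week before its diet began, and was kept on that diet for 16 weeks before a 4 h fast and collection. CON-GFP mice received the GFP virus and the purified control diet. FPC-GFP mice received the same GFP virus and the FPC diet, which is high in fat with added fructose, palmitate and cholesterol and was given with sugar water. FPC-LIPA mice received the FPC diet and a virus carrying the human LIPA gene, which encodes lysosomal acid lipase. There were 6 livers in each of the 3 groups, and no group without a virus or with LIPA on the control diet was among the livers sequenced. FPC-GFP was compared with CON-GFP for the diet, and FPC-LIPA with FPC-GFP for the virus, so both comparisons use the same FPC-GFP livers.

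Keratins are the intermediate filament proteins of epithelial cells and assemble as pairs of a type II and a type I chain. Hepatocytes make a single pair, Krt8 with Krt18, whereas bile duct cells add Krt7 and Krt19. In many forms of liver injury, duct-like cells that carry Krt7, Krt19, Epcam and Sox9 expand, a response known as the ductular reaction, and hepatocytes may gather Krt8 and Krt18 with chaperones and ubiquitin into aggregates known as Mallory-Denk bodies.

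Total counts per library lay between 16632146 and 37739301. Levels are counts per M (CPM) scaled by TMM over all 18 libraries. The hepatocyte gene Alb was at 57550 ± 9418 CPM in CON-GFP (SD, n = 6), as a liver should be, and none of the 10 hepatocyte genes listed was at 0 in all livers of a group. Mouse Lipa measured 336 ± 59.3 CPM in FPC-GFP against 300.2 ± 44.8 CPM in FPC-LIPA (SD, n = 6), but the virus carries the human gene, so these values do not measure the transgene. The share of counts on 90 ribosomal protein genes ranged from 1.75% to 2.55% in CON-GFP, from 1.45% to 1.80% in FPC-GFP and from 2.17% to 8.16% in FPC-LIPA. FPC-LIPA 36, 39 and 37b were the livers with the high shares, at 6.49%, 8.16% and 8.10%. One further liver stood apart for the genes described here, FPC-GFP 11, and results that rest on it are given with and without it. In bulk tissue, fewer cells of a type and less RNA per cell cannot be told apart.

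Krt8 and Krt18 are the hepatocyte keratins, a type II and a type I chain. Krt8 (ENSMUSG00000049382) lies on GRCm38 chromosome 15 from 101996698 to 102004482 on the minus strand, and Krt18 (ENSMUSG00000023043) lies 23697 bases beyond it, from 102028180 to 102032027 on the plus strand. Krt7 (ENSMUSG00000023039), the type II keratin of ducts, is on the same chromosome from 101411043 to 101430313. RefSeq windows of 300 bases (GRCm38.p6), from 250 before to 50 after the start, were found for 5 of the 9 genes: Krt8, Krt18, Krt7, Krt23 and Epcam. The FPC-GFP and CON-GFP livers did not overlap in the levels of Krt8 and Krt18, but did overlap in Krt7. The windows of Krt8, Krt18 and Krt7 are shown for this reason. They are printed 5′ to 3′ on the strand of the gene, at chr15:102004293-102004592 (minus), chr15:102027966-102028265 (plus) and chr15:101412153-101412452 (plus), with capitals for matches to the motifs searched.
Krt8: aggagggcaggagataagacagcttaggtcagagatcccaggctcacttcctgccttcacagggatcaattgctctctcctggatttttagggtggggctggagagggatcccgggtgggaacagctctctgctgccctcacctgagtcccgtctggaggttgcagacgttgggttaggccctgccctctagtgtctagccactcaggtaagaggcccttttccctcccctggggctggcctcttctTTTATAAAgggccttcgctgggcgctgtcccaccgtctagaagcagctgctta
Krt18: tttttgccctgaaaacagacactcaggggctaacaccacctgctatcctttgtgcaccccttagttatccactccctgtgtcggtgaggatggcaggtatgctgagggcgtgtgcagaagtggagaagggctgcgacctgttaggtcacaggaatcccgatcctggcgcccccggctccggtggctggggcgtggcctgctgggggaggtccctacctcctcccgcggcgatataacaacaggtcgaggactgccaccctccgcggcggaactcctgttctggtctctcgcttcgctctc
Krt7: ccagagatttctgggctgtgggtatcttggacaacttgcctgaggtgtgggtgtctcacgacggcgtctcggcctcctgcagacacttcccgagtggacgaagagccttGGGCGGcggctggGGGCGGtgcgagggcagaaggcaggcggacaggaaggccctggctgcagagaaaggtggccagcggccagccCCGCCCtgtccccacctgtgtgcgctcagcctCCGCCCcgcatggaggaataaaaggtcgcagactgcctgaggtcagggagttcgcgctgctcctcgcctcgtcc
Both strands of each window were searched for 5 short motifs. The TATA box, spelled TATAAA, is held by 13.6% of all 32851 windows, and the Krt8 window had it once on each strand, overlapping, between bases 248 and 255. The GC box, spelled GGGCGG, is in 35.7% of windows, and Krt7 had 4 of them. The CCAAT box, with the letters of its name, is in 37.4% of windows but in none of the windows shown. An AP-1 motif, TGANTCA, which 7.81% of windows hold, was likewise not found there. A TEAD motif, GGAATG, is in 14.7% of windows and had no match in them either, so that Krt18 had no match to any of the 5. A match of letters is a description and not a bound site. The windows of Krt8, Krt18 and Krt7 had GC contents of 58%, 61.3% and 66.3%.

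Krt8 had the highest mean level of the 9 genes in every group, also per kilobase of exon. Its level was between 118 and 246 CPM in the CON-GFP livers, with a median of 166 CPM. The FPC-GFP livers lay between 299 and 1837 CPM with a median of 409.9 CPM, and the FPC-LIPA livers between 281 and 407 CPM with a median of 350.1 CPM. All livers of both FPC groups were thus above all CON-GFP livers. The highest value, 1837 CPM, was that of FPC-GFP 11, and the other 5 livers of its group did not exceed 444 CPM. Their mean was 384 ± 58.6 CPM (SD, n = 5), which is 2.18 times the CON-GFP mean.

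Krt18 was lower than Krt8 in every group. It ranged from 69.4 to 117 CPM in CON-GFP (median 72.6 CPM), from 129 to 879 CPM in FPC-GFP (median 168 CPM) and from 89.3 to 199 CPM in FPC-LIPA (median 173 CPM). The FPC-GFP livers did not overlap with CON-GFP, whereas FPC-LIPA 39, at 89.3 CPM, lay within the CON-GFP range. FPC-GFP 11 was again the highest, at 879 CPM, 5.38 times the mean of the other 5 livers.

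Per kilobase of exon, the level of Krt8 was 1.64 ± 0.26 times that of Krt18 over the 18 livers (SD, n = 18). The ratio was 1.57 ± 0.29 in CON-GFP, 1.69 ± 0.11 in FPC-GFP and 1.67 ± 0.37 in FPC-LIPA (SD, n = 6), differences smaller than the spread within the groups. It was never below 1.22 in any liver, so Krt8 was above Krt18 throughout, also in FPC-GFP 11. Reads of keratins can be split among near-identical copies. The pseudogene Krt8-ps did not exceed 1.03 CPM in any liver, and the overlapping genes on the opposite strand, Gm36026 at Krt8 and Gm671 at Krt7, reached at most 1.03 and 0.168 CPM.

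**Figure D1:**
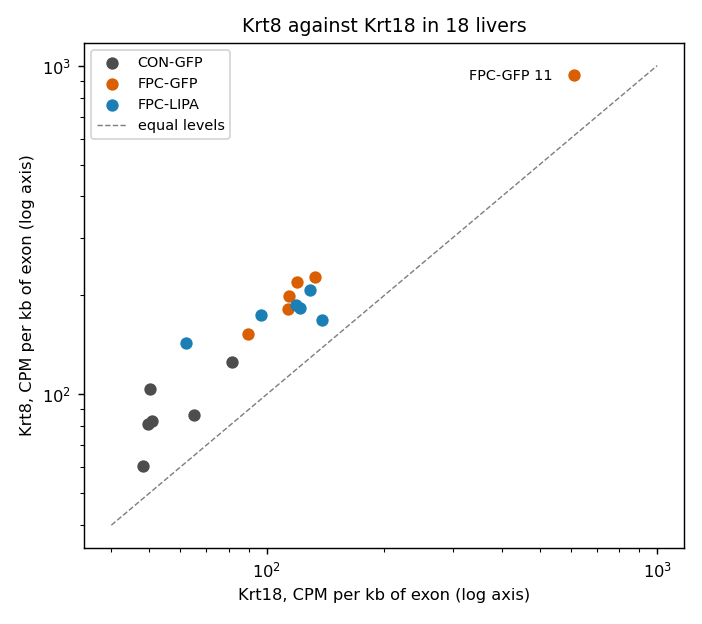
Krt8 against Krt18 in each of the 18 livers, in CPM per kilobase of exon on log axes, with 1 point per liver coloured by group. All points lie above the dashed line of equal levels, and FPC-GFP 11 stands alone at the top right.

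Krt7, Krt19, Epcam and Sox9 mark bile duct and progenitor cells, and their levels in the FPC-GFP and CON-GFP livers overlapped. Krt7 was between 0.322 and 1.39 CPM in CON-GFP (median 0.592 CPM), between 0.516 and 1.46 CPM in FPC-GFP (median 0.947 CPM) and between 0.271 and 1.76 CPM in FPC-LIPA (median 1.05 CPM). Krt19 (ENSMUSG00000020911, chromosome 11, 100140810 to 100148665), the type I partner of Krt7 in ducts, had medians of 0.722, 0.852 and 1.38 CPM in CON-GFP, FPC-GFP and FPC-LIPA. Its CON-GFP livers ran from 0.118 to 3.34 CPM, its FPC-GFP livers from 0.632 to 5.64 CPM and its FPC-LIPA livers from 0.0609 to 1.85 CPM. The Krt19 ranges were therefore wider within each group than the distance between the medians. These are low values, with 3 Krt19 counts in CON-GFP 6 and 2 in FPC-LIPA 36, beside 82 in CON-GFP 1 and 181 in FPC-GFP 11.

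Epcam (ENSMUSG00000045394, chromosome 17, 87635979 to 87651129) encodes an adhesion molecule of duct and other epithelial cells. It ranged from 0.0645 to 1.51 CPM in CON-GFP (median 1.26 CPM), from 0.576 to 5.05 CPM in FPC-GFP (median 1.61 CPM) and from 0.497 to 3.33 CPM in FPC-LIPA (median 1.14 CPM). The lowest of these values rests on 1 count, in CON-GFP 2. Sox9 (ENSMUSG00000000567, chromosome 11, 112782224 to 112787760) encodes a transcription factor of duct and progenitor cells. Its medians were nearly level, at 2.20 CPM in CON-GFP, 2.21 CPM in FPC-GFP and 2.46 CPM in FPC-LIPA. The highest Sox9 value of all was in a control liver, 5.79 CPM in CON-GFP 1, and the group means were 2.68 ± 1.55, 2.61 ± 1.38 and 2.69 ± 1.32 CPM (SD, n = 6).

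Krt23 (ENSMUSG00000006777, chromosome 11, 99477974 to 99493137) is a type I keratin. Its livers spanned 4.90 to 13.0 CPM in CON-GFP (median 7.76 CPM), 2.59 to 21.8 CPM in FPC-GFP (median 10.9 CPM) and 8.93 to 36.2 CPM in FPC-LIPA (median 18.4 CPM). The medians stood in the order of the groups, with overlap between each pair of neighbours. Krt23 went against the other genes in FPC-GFP 11, which had the lowest level of all 18 livers at 2.59 CPM, 0.199 times the mean of the other FPC-GFP livers.

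Ly6d and Fam83a, which are known from stratified epithelium and its tumours, had the highest ratios of FPC-GFP to CON-GFP. Ly6d (ENSMUSG00000034634, chromosome 15, 74762056 to 74763620) encodes a small membrane-anchored protein that is also known from early B cells. Its level was between 1.61 and 7.35 CPM in CON-GFP (median 4.18 CPM), between 11.5 and 159.7 CPM in FPC-GFP (median 41.4 CPM) and between 27.1 and 180.3 CPM in FPC-LIPA (median 85.6 CPM). No liver of either FPC group came down to the CON-GFP range. Within the FPC groups the values spread widely, with FPC-GFP 20 the lowest of its group and FPC-GFP 11 the highest.

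Fam83a (ENSMUSG00000051225, chromosome 15, 57985419 to 58011009) encodes a signalling protein of the growth factor receptor pathway. It was nearly silent in CON-GFP, between 0.367 and 2.09 CPM with a median of 0.714 CPM. The FPC-GFP livers lay between 7.18 and 51.0 CPM (median 19.3 CPM), and the FPC-LIPA livers between 11.1 and 24.5 CPM (median 19.5 CPM). Every FPC liver was above every CON-GFP liver, and the FPC-LIPA range lay inside that of FPC-GFP. Without FPC-GFP 11, the mean FPC-GFP level was 17.3 ± 6.97 CPM (SD, n = 5), 18.6 times the CON-GFP mean.

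**Figure D2:**
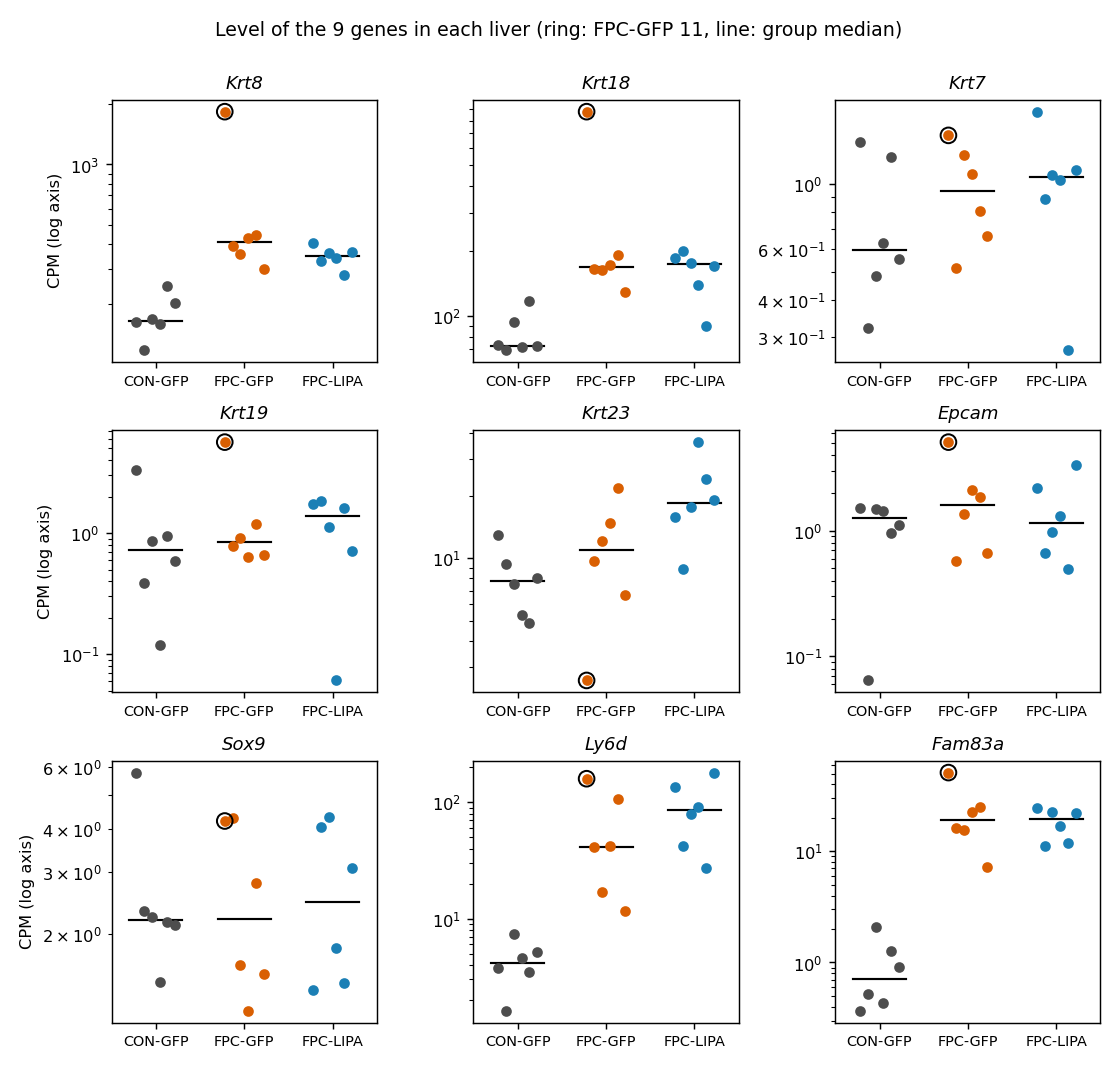
Level of each of the 9 genes in each liver, in CPM on a log axis whose range differs between panels, with 1 point per liver, a line at the group median and a ring around FPC-GFP 11. The FPC livers lie above the CON-GFP livers for Krt8, Ly6d and Fam83a, while the groups overlap for Krt7, Krt19, Krt23, Epcam and Sox9.

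Compared per kilobase of exon, the mean levels in CON-GFP stood in the order Krt8 (90.0 CPM per kilobase), Krt18 (57.7), Ly6d (5.81), Krt23 (5.13), Sox9 (0.648), Krt19 (0.561), Epcam (0.497), Fam83a (0.293) and Krt7 (0.109). The ranges of neighbours in this order overlapped except between Krt18 and Ly6d and between Krt23 and Sox9. In FPC-GFP, Ly6d stood at 84.8 CPM per kilobase and overlapped with Krt18, while Fam83a (7.22) had moved up beside Krt23 (7.20). Sox9, Krt19, Epcam and Krt7 were below 1 CPM per kilobase in the mean of every group. The value of Krt7 is divided by the 7049 bases of all its annotated exons together, which makes it lower than a single transcript would give.

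In the fit of FPC-GFP against CON-GFP, all 9 genes passed the filter on low counts, 8 had positive log2 fold changes and 1, Sox9, a negative one of −0.04 that was 0.18 when libraries were scaled by their totals alone. That scaling moved the median of all 14307 tested genes by 0.20. The log2 fold changes were 4.56 (SE 0.48) for Fam83a, 3.84 (SE 0.58) for Ly6d, 1.81 (SE 0.40) for Krt8 and 1.76 (SE 0.42) for Krt18. Those of Epcam, Krt19, Krt23, Krt7 and Sox9 were 0.80 (SE 0.52), 0.64 (SE 0.67), 0.49 (SE 0.38), 0.30 (SE 0.36) and −0.04 (SE 0.37). The median of the 9 was 0.80, beside 0.01 for all tested genes. Krt8, Krt18, Ly6d and Fam83a met the study's call rule, a fold change of at least 2 with an adjusted p under 0.05, in the higher direction, and 4.76% of all tested genes did so. The same 4 genes had no overlap between the groups with FPC-GFP higher, as had 6.19% of tested genes, and none had it with FPC-GFP lower, as had 4.41%. Since the 9 genes were chosen with these results known, the counts carry no weight of their own.

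Leaving out FPC-GFP 11 moved Krt8, Krt18 and Krt19 by more than the other genes. The value of Krt8 was then 1.12 (SE 0.17) and that of Krt18 0.97 (SE 0.15), which is under the 2-fold minimum, so that 3 of the 9 genes met the rule. Fam83a (4.16, SE 0.40) and Ly6d (3.32, SE 0.50) stayed high, Epcam came to 0.25 (SE 0.46), and Krt19 turned to −0.32 (SE 0.57). Krt7 came to 0.14 (SE 0.38) and Sox9 to −0.22 (SE 0.38), while Krt23 went up to 0.70 (SE 0.29). Between the libraries with sample-sheet numbers from 55 to 68, the number that ends each sample's description, Krt8 and Krt18 had log2 fold changes of 1.82 and 1.81 and Krt19 had 1.504 (SE 0.70). This subset keeps FPC-GFP 11 and leaves out FPC-GFP 20, CON-GFP 2 and CON-GFP 1, the control liver with the highest Krt19.

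In the fit of FPC-LIPA against FPC-GFP none of the 9 genes met the call rule, against 11.4% of all 14620 tested genes, and none was without overlap, against 7.58% in either direction (3.81% higher and 3.77% lower). At an unadjusted p under 0.05, edgeR and DESeq2 each had 1 of the 9, where 39.8% and 43.0% of all tested genes passed. DESeq2 called 0 and gave no adjusted p for 2 of the 9. The 9 genes were chosen with results of these livers known, so these counts too carry no weight of their own. Values were positive for 4 genes and negative for 5, with a median of −0.33 beside 0.04 for all tested genes. Without FPC-GFP 11, values were positive for 7 genes and negative for 2, Krt8 and Krt18, with a median of 0.23. The fit gave −0.85 (SE 0.39) for Krt8 and −0.82 (SE 0.43) for Krt18, but without FPC-GFP 11 these were −0.14 (SE 0.18) and −0.03 (SE 0.21). Krt23 had the highest positive value, 0.85 (SE 0.41), and 0.64 (SE 0.35) without that liver. Ly6d was at 0.56 (SE 0.58), Krt7 at 0.09 (SE 0.39) and Sox9 at 0.04 (SE 0.39), which was −0.06 with scaling by total counts. Fam83a, Epcam and Krt19 were at −0.33 (SE 0.37), −0.41 (SE 0.55) and −0.46 (SE 0.65), and without FPC-GFP 11 at 0.07 (SE 0.31), 0.14 (SE 0.51) and 0.50 (SE 0.54). Without that liver Ly6d came to 1.08 (SE 0.56), Krt7 to 0.24 (SE 0.41) and Sox9 to 0.23 (SE 0.41).

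Restricting both groups to sample-sheet numbers 55 to 68 put the values at −1.01 (SE 0.42) for Krt8, −0.99 (SE 0.47) for Krt18 and 0.03 (SE 0.54) for Ly6d. That subset keeps FPC-GFP 11 and leaves out FPC-GFP 20 and FPC-LIPA 37b. Short transcripts were higher in FPC-LIPA as a whole. The 500 tested genes nearest in exon length to Ly6d, which has 744 exon bases, had a median log2 fold change of 0.77. With such medians taken off, an alternative chosen after seeing the data, Ly6d came to −0.21, Krt23 to 0.51, Krt8 to −1.04 and Krt18 to −1.18. The part of transcript length and of the ribosomal protein share in these values was not tested.

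**Figure D3:**
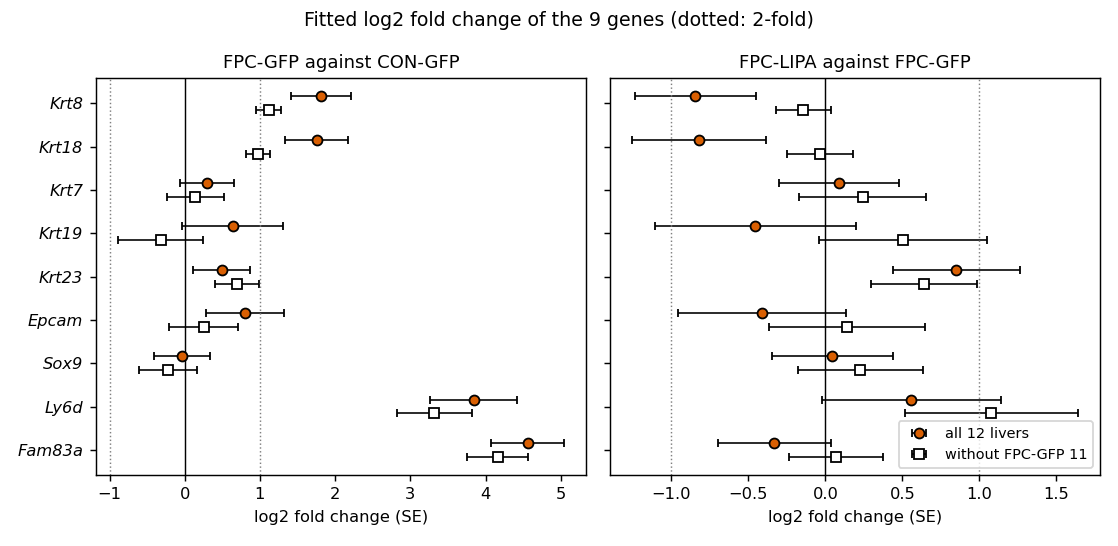
Fitted log2 fold changes with standard errors for the 9 genes in FPC-GFP against CON-GFP (left) and FPC-LIPA against FPC-GFP (right), from all 12 livers (filled circles) and without FPC-GFP 11 (open squares), with dotted lines at a 2-fold change. Fam83a and Ly6d stay far to the right in the left panel with either set of livers, and Krt8 and Krt18 move towards 0 in both panels when FPC-GFP 11 is left out.

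FPC-GFP 11 had the highest level of its group for 7 of the 9 genes and the lowest for 1, Krt23. Its ratio to the mean of the other 5 FPC-GFP livers was 6.71 for Krt19, 5.38 for Krt18, 4.79 for Krt8, 3.84 for Epcam, 3.65 for Ly6d and 2.95 for Fam83a. Krt7 and Sox9 were closer to the rest, at 1.69 and 1.84 times. The same liver was the highest of its group in the summed levels of several lists of genes. Its sum over 17 other filament genes was 3003 CPM, where the remaining 5 livers lay from 699 to 1379 CPM, and 1282 against 833 to 954 CPM for 22 keratin linkers and junction genes. For 8 squamous epithelial genes it had 21.1 CPM against 2.05 to 3.19 CPM, and for 22 other biliary genes 180.6 against 92.7 to 146 CPM. Single abundant genes weigh on such sums. Tubb2a gave 1301 CPM and Actb 1006 CPM of its filament sum. Spp1 gave 90.6 CPM of its biliary sum, where the next liver had 90.0 CPM of Spp1. The macrophage and leukocyte genes of FPC-GFP 11, at 330.0 CPM, lay within the range of the others, from 288 to 578 CPM. It had the lowest sums of its group over the stellate cell genes, at 212.4 against 227 to 275 CPM, and over the B cell genes, at 211.5 against 211.6 to 262 CPM. Dcn gave 112.0 CPM of its stellate sum and Col3a1 37.7 CPM, both the lowest of the group. Its Col1a1, at 15.0 CPM, was the second highest and its Timp1, at 1.28 CPM, the highest. Of its B cell sum Bst2 alone gave 209.2 CPM.

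The genes whose deviations from their group means were most like those of each member were found over all 18 livers. Krt8 and Krt18 were closely alike with each other (Pearson's r = 0.93), Krt8 also with Lmna (0.94) and Krt18 with Nek6 (0.92). These values lean on FPC-GFP 11, since over the other 17 livers Krt8 and Krt18 had r = 0.70 and Krt8 and Lmna 0.77. Krt7 had r = 0.49 with Krt8 and 0.52 with Krt18, or 0.60 and 0.63 without FPC-GFP 11. Ly6d and Fam83a had r = 0.77 with each other and 0.69 without that liver, and Epcam and Ly6d 0.78 and 0.73. Krt19 was most like Tns1 (0.88) and Itgb3 (0.87), Sox9 like Pxmp4 (0.91), Nfil3 (0.90) and Elovl3 (0.88), and Krt23 like Hsd17b6 (0.84). Among the duct genes the values ran from 0.08 for Sox9 and Epcam and 0.24 for Krt19 and Epcam to 0.53 for Krt19 and Sox9 and 0.68 for Krt7 and Epcam. The closest genes were Cystm1 (0.83) for Epcam, Nrg1 (0.85) for Ly6d and Syt12 (0.87) for Fam83a. All points share the libraries' depth and scaling, and Krt7 was left out of the search for the closest genes because its mean was under 1 CPM.

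Other genes of the same cells and structures came from lists, 237 genes in all. In FPC-GFP against CON-GFP 140 of them were tested with edgeR's quasi-likelihood method, and 23 were called higher and 2 lower, beside 4.76% and 2.44% of all tested genes. Of 22 other biliary genes, 14 were tested and all 14 had positive log2 fold changes with a median of 0.39, but none was called. Spp1 (osteopontin) had a mean of 31.6 ± 6.12 CPM in the control livers against 61.4 ± 23.6 CPM under the FPC diet (SD, n = 6), a log2 fold change of 0.95 (SE 0.22, edgeR adjusted p = 0.00712) that is under the 2-fold minimum. Slc10a2, the bile acid transporter of duct cells, was at 21.6 and 23.1 CPM. Without FPC-GFP 11 the median of this list was 0.26 and Slc10a2 turned to −0.13 (SE 0.30), so the 14 did not all stay positive.

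Of 26 regulators of duct fate, 24 were tested and 3 rose in FPC-GFP. Sox4, a relative of Sox9, went from 0.722 to 2.07 CPM (log2 fold change 1.48, SE 0.24, edgeR adjusted p = 0.000992). The Notch target Heyl went from 1.62 to 3.66 CPM (1.16, SE 0.18, edgeR adjusted p = 0.000837) and the receptor Notch3 from 0.630 to 1.52 CPM (1.22, SE 0.31, edgeR adjusted p = 0.0114). All 3 kept their calls when any 1 liver was left out. Yap1, the most abundant with Onecut2, was at 55.2 and 64.2 CPM (0.21, SE 0.14). The median of the list was 0.31.

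All 17 other filament genes had positive log2 fold changes, with a median of 0.80, and 5 of them rose. The tubulin genes Tubb2b and Tubb2a had log2 fold changes of 3.23 (SE 0.75, edgeR adjusted p = 0.00769) and 2.06 (SE 0.63, edgeR adjusted p = 0.0292), and Tubb6 had 1.82 (SE 0.48, edgeR adjusted p = 0.0144). Lmna, the nuclear lamina gene, went from 26.1 ± 6.03 to 63.6 ± 44.5 CPM (SD, n = 6), a log2 fold change of 1.27 (SE 0.31, edgeR adjusted p = 0.00926). The fifth, Tuba1a, was named after its values were seen and had 1.09 (SE 0.25, edgeR adjusted p = 0.00622). FPC-GFP 11 was the highest liver of its group for Tubb2a, at 1301 CPM against 408 CPM in the next, for Tubb6, at 74.0 against 15.7 CPM, and for Lmna, at 153.9 against 52.4 CPM. Without it 3 genes of the list were called, the median was 0.59, and Tubb2a (1.18, SE 0.49), Tubb6 (0.94, SE 0.23) and Lmna (0.80, SE 0.16) no longer met the rule. Tubb2a also lost its call without CON-GFP 2, 3, 6 or 8, at values between 1.91 and 2.05.

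Chaperones and other genes of keratin aggregates gave 4 increases among 18 tested, with a median of 0.63. Hspb1, a small heat shock protein that binds intermediate filaments, was between 7.28 and 20.1 CPM in the control livers, and every FPC-GFP liver lay higher, between 45.0 and 292 CPM. Its log2 fold change was 2.62 (SE 0.46, edgeR adjusted p = 0.00151), and 1.86 (SE 0.24) without FPC-GFP 11, the highest liver. Hspa1a and Hspa1b, the inducible Hsp70 genes, had 2.27 (SE 0.61, edgeR adjusted p = 0.0152) and 2.02 (SE 0.37, edgeR adjusted p = 0.00190), but these near-identical copies can share reads, so the split between them is uncertain. The stress factor Atf3 had 1.14 (SE 0.25, edgeR adjusted p = 0.00565), and 0.90 without FPC-GFP 19, which is under the 2-fold minimum. Ubb, the ubiquitin gene, was at 514 and 510.2 CPM.

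Of 22 linker and junction genes, 21 were tested and 1 was called, Ppl (periplakin, a protein that ties filaments to desmosomes). Its log2 fold change of 1.71 (SE 0.60, edgeR adjusted p = 0.0498) rested on FPC-GFP 11, at 96.6 CPM against 11.5 CPM in the next liver, and was 0.38 (SE 0.23) without it. The call was also lost without any of the 6 CON-GFP livers or FPC-GFP 19. Plec (plectin) was at 42.8 and 72.6 CPM, with a log2 fold change of 0.75 (SE 0.28) that missed the threshold. Among 8 squamous epithelial genes 3 were tested, and Sprr1a, a gene of the cornified envelope, rose by 4.02 on the log2 scale (SE 1.03, edgeR adjusted p = 0.0124). FPC-GFP 11 had 13.9 CPM of Sprr1a and the next liver 1.26 CPM, and without FPC-GFP 11 the log2 fold change was 1.96 (SE 0.57). The squamous markers Trp63 and Dsg3 were at 0 in all FPC-GFP livers, and Krt14, Dsg3 and Ivl in all CON-GFP livers. These genes were named after their values were seen.

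Relatives of the 9 genes gave few calls. Of 49 other keratins only Krt10 passed the filter, at 1.61 and 1.65 CPM, and 37 of the 49 were at 0 in every FPC-GFP liver. None of the 5 Ly6 genes tested was called, with Ly6e at 96.9 and 163.7 CPM (log2 fold change 0.75, SE 0.16) and Ly6g2 at 200.9 and 117 CPM (−0.79, SE 0.16). Of the Fam83 genes, Fam83g rose from 1.44 to 4.24 CPM (1.54, SE 0.29, edgeR adjusted p = 0.00231) and Fam83f fell from 4.12 to 1.34 CPM (−1.60, SE 0.36, edgeR adjusted p = 0.00626). Fam83h was at 12.1 and 15.0 CPM.

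Markers of other liver cells differed between the same groups. Of 8 macrophage and leukocyte genes 5 rose, with log2 fold changes of 1.60 (SE 0.21) for Cd68, 1.56 (SE 0.18) for Adgre1, 1.44 (SE 0.27) for Lyz2, 1.39 (SE 0.22) for Csf1r and 1.01 (SE 0.17) for Clec4f, and their summed level, 109 to 225 CPM in CON-GFP, was 288 to 578 CPM in FPC-GFP. Clec4f was under the 2-fold minimum without CON-GFP 1 or 2 or FPC-GFP 12 or 19. Col1a1, Col3a1 and Timp1 rose among 8 stellate cell genes, which summed to 146 to 245 CPM and 212 to 275 CPM, but Timp1 lost its call when any of 9 of the 12 livers was left out. All 10 hepatocyte genes had negative log2 fold changes with a median of −0.39, of which Tat (tyrosine aminotransferase) fell from 1479 to 534 CPM (−1.48, SE 0.35, edgeR adjusted p = 0.00760), and their summed level ranged from 71570 to 105900 CPM and from 62410 to 88990 CPM. Scaling by library totals alone turned Alb and Apoa1 to positive values. None of 3 mesothelial genes tested, and none of 5 genes of B and plasmacytoid dendritic cells, was called. Sums over the B cell list were 148 to 194 CPM under the control diet and 212 to 262 CPM under the FPC diet, and no gene of the B cell, macrophage or stellate cell lists was at 0 in all livers of a group. Of the B cell sums Bst2 alone gave 143.5 to 191.1 CPM in CON-GFP and 208.6 to 257.3 CPM in FPC-GFP. The part of these cells in the levels of the 9 genes was not tested.

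In FPC-LIPA against FPC-GFP, 147 of the listed genes were tested, with 18 higher and 5 lower beside 10.3% and 1.11% of all tested genes. None of 15 biliary genes tested was called, and their median was 0.25. None of 17 filament genes was called either, and their median was −0.23. Plec, the linker between keratin filaments and other parts of the cell skeleton, fell from 72.6 ± 29.9 to 27.3 ± 16.2 CPM (SD, n = 6), a log2 fold change of −1.40 (SE 0.37, edgeR adjusted p = 0.0219). Its FPC-GFP livers ran from 54.9 to 132 CPM and its FPC-LIPA livers from 10.1 to 52.4 CPM, so the groups did not overlap. The call was lost without FPC-GFP 11 (−1.15, SE 0.35) or FPC-LIPA 39.

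Duct fate regulators gave 4 increases and 1 decrease among 25 tested. Their log2 fold changes were positive for 9 genes and negative for 16, with a median of −0.22. Yap1 was at 64.2 and 37.8 CPM, with no overlap between the groups. Its log2 fold change of −0.76 (SE 0.22, edgeR adjusted p = 0.0292) was under the 2-fold minimum. Ccn2, a Yap1 target, went from 10.1 to 32.2 CPM (1.67, SE 0.35, edgeR adjusted p = 0.0136), Klf6 from 15.7 to 40.7 CPM (1.37, SE 0.32, edgeR adjusted p = 0.0175) and Sox4 from 2.07 to 5.87 CPM (1.48, SE 0.46, edgeR adjusted p = 0.0368). Tgfb2, named after its values were seen, had 1.08 (SE 0.36, edgeR adjusted p = 0.0444). Onecut1, a hepatocyte and duct transcription factor, fell from 7.09 to 1.30 CPM (−2.38, SE 0.73, edgeR adjusted p = 0.0359). Sox4 and Klf6 were highest in FPC-LIPA 37b and lost their calls without it (0.73 and 0.87). Onecut1 was highest in FPC-GFP 20, at 23.99 CPM, and its log2 fold change was −1.47 without that liver. It lost its call in 7 of the 12 fits that left out 1 liver, among them those without FPC-GFP 11 and FPC-GFP 20. Sox4 lost its call in as many of these fits.

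In the remaining epithelial lists Fam83g (−1.22, SE 0.31, edgeR adjusted p = 0.0203) and Fam83h (−1.03, SE 0.29, edgeR adjusted p = 0.0264) fell, Hspa1a fell (−1.23, SE 0.41, edgeR adjusted p = 0.0463), and Nqo1 (1.18, SE 0.35, edgeR adjusted p = 0.0326) and Krt10 (1.63, SE 0.43, edgeR adjusted p = 0.0228) rose. Without FPC-GFP 11 the calls of Fam83g, Fam83h, Hspa1a and Nqo1 were lost, and Krt10 lost its call without FPC-GFP 20 or FPC-LIPA 39. Fam83h, Hspa1a and Nqo1 kept theirs in 6, 3 and 4 of the 12 fits that left out 1 liver. Markers of other cells went both ways in FPC-LIPA. Of 8 macrophage and leukocyte genes 5 rose, Lyz2 from 135.6 to 499.6 CPM (1.88, SE 0.30, edgeR adjusted p = 0.00844) with Adgre1, S100a8, S100a9 and Ptprc, the last named after its values were seen, and the list summed to 620.1 to 1199 CPM, while Csf1r was at −0.13 (SE 0.37). The B cell genes Cd79b (1.68, SE 0.38) and Ms4a1 (2.32, SE 0.54) rose, as did Siglech, of plasmacytoid dendritic cells, also named after its values were seen, and 2 of the 7 genes tested had negative values. This list of 8 genes, none at 0 in all livers of a group, summed to 208 to 302 CPM, of which Bst2 gave 199.8 to 280.2 CPM. The mesothelial genes Msln and Gpm6a rose among 3 tested, with list sums of 2.83 to 19.6 CPM against 1.86 to 4.03 CPM, and Msln lost its call in 5 of 12 fits that left out 1 liver. Of the 8 stellate cell genes, 4 had positive and 4 negative values, among them Col1a1 at −0.19 (SE 0.32), and Col3a1 alone rose. Fabp2 rose among 2 intestinal and pancreatic genes tested. Their part in the levels of Ly6d and the other 8 genes was not tested.

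The calls in FPC-LIPA were few within a subset of the libraries. With sample-sheet numbers from 55 to 68, 2 listed genes were called, both of the macrophage and leukocyte list, and with FPC-LIPA 31, 33 and 34 alone, the livers with the lower ribosomal protein shares, 6 were called, none of an epithelial or keratin list. Of the 23 calls from all livers, 15 were left without FPC-GFP 20 and 31 were made without FPC-LIPA 33.

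**Figure D4:**
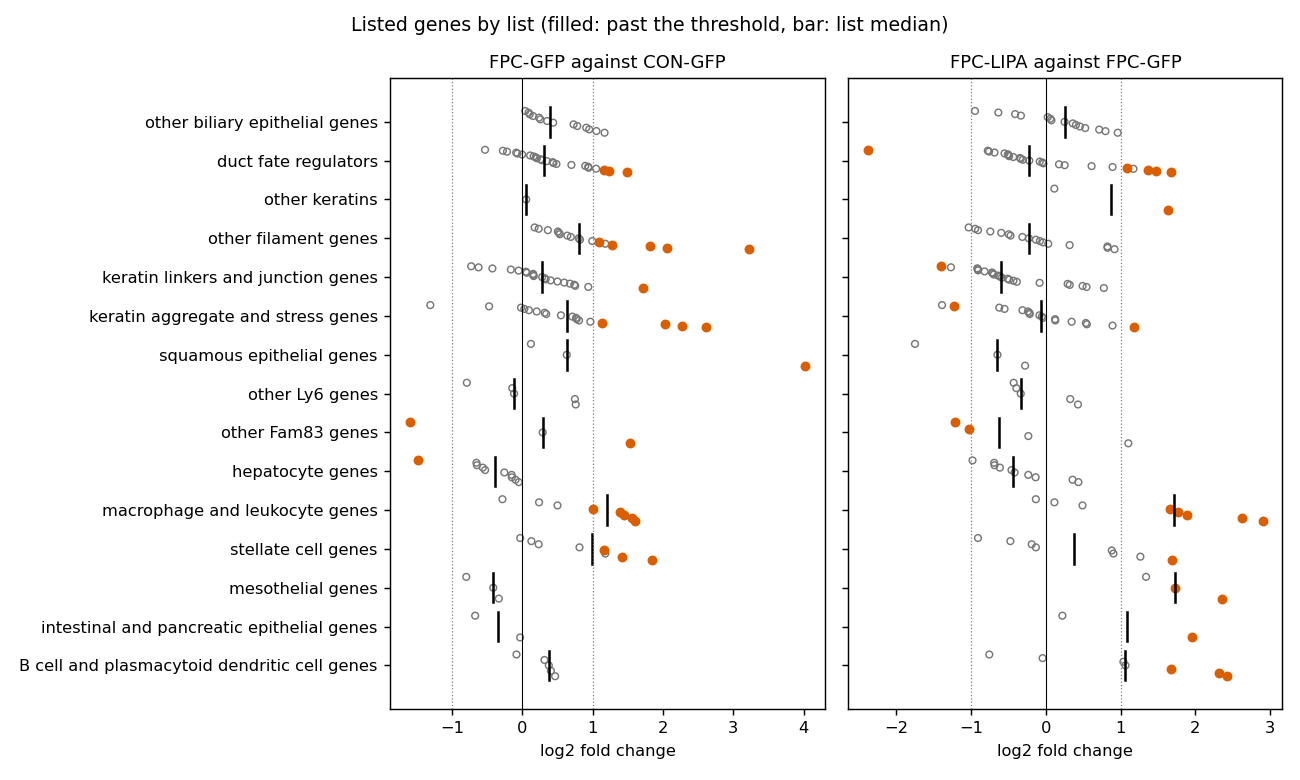
Log2 fold change of each tested gene of the 15 lists in FPC-GFP against CON-GFP (left) and FPC-LIPA against FPC-GFP (right), with filled points for genes past both thresholds, open points for the rest, bars at list medians and dotted lines at a 2-fold change. In these fits of all livers, all biliary and all filament points lie to the right of 0 in the left panel, with no filled biliary point in either panel.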

How the data were processed

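RNA from 18 mouse livers was sequenced, and the authors deposited raw read counts per gene. The authors trimmed reads with Trimmomatic, aligned them to GRCm38 with HISAT2 2.1.0 and counted them with featureCounts (Subread), with the HISAT2 version as the submitters' processing notes give it. Both a stranded and an unstranded kit are named and the strand setting is not given in the sources used here, so overlapping genes on opposite strands may share reads. Another 5 columns of the table matched no sample and were not used.

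Libraries were grouped by their labels, with 6 mice per group. Each comparison was fitted on its 12 libraries in edgeR 4.0.16 (R 4.3.3) with filterByExpr, TMM scaling, a prior count of 2, the quasi-likelihood test and Benjamini-Hochberg adjustment over all tested genes. A gene was called at a fold change of at least 2 with an adjusted p under 0.05. The fits were tested on simulated data. The members and the lists were chosen with earlier results of these data known. Genes named from a list were at most 4 called per list and comparison, by size of change, and the 2 with the highest mean level, with exceptions stated. Likeness is Pearson's r of log2 CPM after subtracting group means. One gene that the naming rule selects is not reported here. Promoter windows are from RefSeq (GRCm38.p6), and gene positions and exon lengths from GENCODE, which held 55227 of the 55487 genes.

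Alternatives were DESeq2 1.42.0 size factors and Wald test, scaling by library totals alone, no filter, a minimum of 1 CPM in at least 6 libraries, a joint fit of the 18 libraries, subsets of libraries, each library left out, no fold minimum and, chosen after seeing the data, the median of 500 genes of like length taken off. Total counts of 16632146 to 37739301 per library limit precision for genes near 1 CPM. Nothing beyond the separate mice tells biological from technical spread.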

Additional observations from a re-analysis of the deposited data

Results flagged for a closer look

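Among 30 groups of 6 livers, those of the 9 genes and of the ratio of Krt8 to Krt18, a highest value far from the next was found for 6, with the ratio of that gap to the whole range of the group above Dixon's 95% critical value. Chance marks about 1 in 20 groups only where values are normally distributed, which was not tested here. The 9 genes were chosen by these levels, so the 6 values found carry no weight of their own. In FPC-GFP 11 these were Krt8 at 1837 CPM (ratio 0.906), Krt18 at 879 CPM (0.917), Krt19 at 5.64 CPM (0.886) and Epcam at 5.05 CPM (0.658). In CON-GFP 1 they were Krt19 at 3.34 CPM (0.741) and Sox9 at 5.79 CPM (0.801). The values of these genes come from the same libraries, so they are not independent of each other.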

How the results depend on the processing

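No paired analysis was possible because the groups share no replicate number. In FPC-GFP against CON-GFP, 4 of the 9 genes met the call rule, 3 to 4 with 1 liver left out (3 without FPC-GFP 11) and 2 by the DESeq2 Wald test, which gave no adjusted p for Krt8 and Krt18. Of the listed genes 25 were called, 57 with no fold minimum and 20 to 30 with 1 liver left out. In FPC-LIPA against FPC-GFP, none of the 9 genes was called under any alternative run. Of the listed genes 23 were called, 2 among sample-sheet numbers from 55 to 68, 6 with FPC-LIPA 31, 33 and 34 only, 38 with no fold minimum, and 15 (without FPC-GFP 20) to 31 (without FPC-LIPA 33) with 1 liver left out. The subsets hold fewer livers, and no fold minimum admits smaller changes by construction. For single listed genes, 954 values under alternatives kept their direction and side of the threshold in FPC-GFP against CON-GFP, 46 lost the call, 7 gained it and 31 changed sign without being called. In FPC-LIPA against FPC-GFP these counts were 993, 90, 11 and 41, and the cause was not tested. Scaling by library totals alone moved the median of all genes by 0.20 and −0.13, and called genes that were higher made up 82.4% and 87.8% of calls, against 66.1% and 90.2%. Krt7, Krt19 and Epcam had 1 to 5 counts in their lowest livers.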

Other observations

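Other livers also stood at the ends of their groups for several of the 9 genes. CON-GFP 1 had the highest level of its group for 5 genes and CON-GFP 2 the lowest for 5. FPC-LIPA 39 was the lowest of its group for 5 genes and FPC-GFP 20 for 4. FPC-LIPA 37b had the highest sums of its group over the other biliary genes, at 371.5 CPM, the macrophage and leukocyte genes, at 1199 CPM, and the stellate cell genes, at 1053 CPM, while it was the highest for 2 of the 9 genes. Few genes made up much of these sums: Spp1 gave 201.8 CPM and Slc10a2 116.1 CPM, Lyz2 697.7 CPM, and Dcn 574.9 CPM and Col3a1 416.5 CPM. This library had the fewest counts of all, 16632146, and a ribosomal protein share of 8.10%.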
